A study of Mus musculus with 8 samples.

Results

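The epidermal growth factor (EGF) and hepatocyte growth factor (HGF) systems were followed through mouse Lewis lung carcinoma tumors as 10 genes, 6 ligands and 4 receptors. The ligands were Areg, Ereg, Hbegf, Tgfa, Nrg1 and Hgf, and the receptors were Egfr, Erbb2, Erbb3 and Met. The genes were taken by symbol from a table of 23952 gene symbols, with the most abundant RefSeq transcript standing for each symbol, and all 10 were found. The table gives RPKM, reads scaled to transcript length and to the total of the library, so levels of different genes are on a per-length scale. How well that scale holds between long and short transcripts was not tested.

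The tumors grew under the skin of both flanks of Col1a1-GFP transgenic mice, in which green fluorescent protein marks cells that use the collagen I gene Col1a1. The injected Lewis lung carcinoma cells, a mouse line, had been transfected with dTomato, sorted for red fluorescence and kept in G418. Fluorescently labelled collagen was put into the tumors 24 h before they were made into single cells. There were 4 groups of 2 libraries. Total tumor was whole tumor, LLC was the dTomato-positive cells and Fibroblast the GFP-positive cells. TAM were tumor-associated macrophages, taken as F4/80-positive and collagen-positive cells with neither dTomato nor GFP. All groups shared the tumor line and the Col1a1-GFP host, and no untreated or tumor-free sample was part of the design. The sources used here do not give strain, age or the number of animals. The labels do not tie the libraries to animals, so a p-value here reflects the spread between libraries only, which may be technical.

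Receptors of the EGF family are tyrosine kinases that work in pairs. EGFR binds the products of Areg, Ereg, Hbegf and Tgfa, ERBB3 binds neuregulin 1 from Nrg1, and ERBB2, which has no known soluble ligand of its own, serves as the partner of the others. The ligands are made as membrane-anchored precursors that proteases such as ADAM17 release. HGF is classically made by mesenchymal cells as an inactive chain that is cleaved outside the cell, and its receptor MET is classically found on epithelial and carcinoma cells.

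The steps between low RPKM values put library depth at 4.28 to 10.4 M reads, with library 2 of each group at 4.28 to 4.72 M and library 1 at 8.54 to 10.4 M. Several libraries stood apart from their partner. Total tumor 2 held relatively little RNA of long transcripts, with a median log2 difference from Total tumor 1 of -0.74 over genes with transcripts above 5 kb and 0.82 below 1.5 kb, against medians between 0.12 and 0.28 and between -0.23 and -0.10 in the other groups. All 8 epithelial marker genes (Epcam, Cdh1, Krt8, Krt18, Krt19, Krt5, Krt14 and Cldn4) were higher in Fibroblast 2 than in Fibroblast 1, and their summed level was 194 against 25.2 RPKM. TAM 2 had 641 RPKM of 8 fibroblast markers against 132 in TAM 1, and LLC 2 had 488 RPKM of 8 macrophage markers against 76.5 in LLC 1. The macrophage markers summed to 14793 RPKM or more in both TAM libraries and the fibroblast markers to 22379 RPKM or more in both Fibroblast libraries. The fibroblast list also summed to 3727 and 4965 RPKM in LLC, of which Col3a1 alone was 2507 and 3142 RPKM. Col1a1, the gene that the GFP follows, was 76.2 and 192 RPKM in LLC against 5315 and 4200 in Fibroblast. The part of fibroblast material in the LLC levels of the members was not tested. LLC libraries had Krt8 (57.5 and 43.6 RPKM) and Krt18 (122 and 82.8 RPKM) but only 0 and 0.45 RPKM of Epcam and 0.02 and 0.42 RPKM of Cdh1, so the defining epithelial adhesion genes were near 0 in the carcinoma cells.

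The sorted populations differed in their most abundant ligands and receptors. LLC had Areg, Ereg and Hbegf as its most abundant ligands and Met as its most abundant receptor. Fibroblast had Egfr far above every other receptor together with the highest Hgf. TAM had Nrg1 as the most abundant of the 6 ligands and little of any of the 4 receptors. The Areg mean did not set LLC (14.96 RPKM) apart from Fibroblast (13.33 RPKM). The Fibroblast mean joins 2.82 RPKM, below both LLC libraries, and 23.8 RPKM, above them in the library with more epithelial marker RNA. At 1 RPKM or more in both libraries, LLC had 3 of 6 ligands (Areg, Ereg, Hbegf) and 3 of 4 receptors (Egfr, Erbb2, Met), and Total tumor had the same 6 genes. Fibroblast had 3 ligands (Areg, Hbegf, Hgf) and 3 receptors (Egfr, Erbb2, Met), and TAM had 3 ligands (Areg, Hbegf, Nrg1) and 2 receptors (Egfr, Met). Over all symbols, 45.8% reached that level in LLC, 46.8% in Total tumor, 47.4% in Fibroblast and 43.7% in TAM. In bulk RNA, fewer cells of a kind and less RNA per cell cannot be told apart.

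The make-up of the receptors separated the populations. Egfr was 82.2% and 84.0% of the summed RPKM of the 4 receptors in the Fibroblast libraries, while Met was 60.9% and 65.1% in LLC. The receptors together reached 59.8 and 79.5 RPKM in Fibroblast, 25.6 and 32.2 RPKM in LLC, and 3.17 and 5.64 RPKM in TAM. Nrg1 was 44.7% and 42.9% of the summed RPKM of the 6 ligands in TAM, against 0.127% and 0% in LLC, where Areg was 46.6% and 52.8%.

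Areg encodes amphiregulin, a ligand that binds EGFR alone. Its level was 16.8 and 13.1 RPKM in LLC, 13.5 and 14.0 RPKM in Total tumor, and 2.94 and 2.62 RPKM in TAM. In Fibroblast the libraries disagreed, at 2.82 and 23.8 RPKM, an 8.45-fold gap that rested on an estimated 35.5 and 137 reads. LLC and TAM did not overlap, while Fibroblast spanned both. In 1 limma fit of log2(RPKM + 1) over all 8 libraries and 13311 genes, Areg did not pass the threshold of 0.05 between TAM and LLC (log2 -2.07, SE 0.73, adjusted p = 0.0537). It did pass in limma with a filter of 5 RPKM (adjusted p = 0.0476) and with either Fibroblast library left out. Leaving out a Fibroblast library does not move this log2. It takes the gap between the Fibroblast libraries out of the error, which the fit shares over all groups. Those passes are therefore not read as added support. Across all other settings tried, the adjusted p in limma ran from 0.00289 to 0.222.

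Fibroblast 2, the library with high Areg, was also the one with epithelial transcripts. Epcam stood at 0.33 RPKM in Fibroblast 1 and 8.93 in Fibroblast 2, Cldn4 at 0.37 and 9.19, and Krt19 at 16.5 and 99.6. The median ratio of Fibroblast 2 to Fibroblast 1 over the epithelial list was 17.2. The part of this material in the Areg level was not tested. Without Fibroblast 2, Areg in TAM and Fibroblast differed by a log2 of -0.018 without passing the threshold, and Fibroblast was lower than LLC (log2 -2.05, adjusted p = 0.014, other settings 0.014 to 0.844). Without Fibroblast 1, TAM was lower than Fibroblast (log2 -2.72, adjusted p = 0.00357, other settings 0.00357 to 0.988).

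The start of Areg is shown because it has the most kinds of known promoter element among the 6 members whose sequences were used. No sequence of Ereg, Hbegf, Nrg1 or Erbb3 was used. RefSeq promoter sequences of build GRCm38.p6 were used for 6 of the 10 genes (Areg, Tgfa, Hgf, Egfr, Erbb2 and Met), while the expression table was made on mm9. The 250 bases before each start were searched on both strands for TGACGTCA (the cyclic AMP response element, CRE), TGANTCA (the AP-1 element), GGGCGG (the GC box) and TATAAA (the TATA box). None of these motifs contains another. The window of Areg, chr5:91139349-91139598 on the plus strand, has a CRE, a GC box and a TATA box, shown in capitals and beginning 61, 52 and 31 bases before the start.
Areg: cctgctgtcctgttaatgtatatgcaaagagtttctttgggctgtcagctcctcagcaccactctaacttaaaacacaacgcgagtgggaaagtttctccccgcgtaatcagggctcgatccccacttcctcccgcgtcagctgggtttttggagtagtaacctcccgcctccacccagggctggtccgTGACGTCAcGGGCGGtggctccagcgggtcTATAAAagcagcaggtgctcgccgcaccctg
Of 32851 such windows, 1.55% hold the CRE, 12.4% the TATA box, 32.7% the GC box and 6.75% the AP-1 element. A match is a description of these letters, not of a bound site.

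Ereg, which encodes epiregulin, a ligand of EGFR and ERBB4, was highest in LLC among the sorted populations. LLC held 6.93 and 3.38 RPKM of it and Total tumor 7.08 and 2.303, against 0.056 and 0.216 in TAM, values that rest on an estimated 2.0 and 4.0 reads. Fibroblast again disagreed, at 2.28 and 0.204 RPKM, now with Fibroblast 1 the higher. No library of LLC overlapped with TAM or Fibroblast. Ereg was lower in TAM than in LLC (log2 -2.38, SE 0.59, adjusted p = 0.0145), a call that ended with no filter on low values (adjusted p = 0.0941), without LLC replicate 1 (0.101), without the first TAM library (0.0801) and without the second (0.0593). Its adjusted p ran from 0.00683 to 0.101. Fibroblast against LLC did not pass (log2 -1.57, SE 0.59, adjusted p = 0.0713), but did without Total tumor replicate 1 or 2 (0.0391 and 0.0392) and in a fit of the sorted libraries only (0.039), with other settings from 0.0365 to 0.384.

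Hbegf encodes heparin-binding EGF-like growth factor, a ligand of EGFR and ERBB4 that is also an early response gene. Its level was 11.4 and 7.86 RPKM in LLC, 9.14 and 6.88 in Total tumor, 2.43 and 1.33 in Fibroblast, and 2.12 and 2.83 in TAM. Both LLC libraries lay above all 4 libraries of the other sorted populations. The mean in LLC was 3.90-fold that in TAM (log2 -1.60 in TAM, SE 0.33, adjusted p = 0.00628) and 5.11-fold that in Fibroblast (log2 -1.89 in Fibroblast, SE 0.33, adjusted p = 0.00412). The TAM call ended without LLC replicate 1 (adjusted p = 0.0559, other settings 0.0044 to 0.0559). Fibroblast and TAM overlapped (log2 0.29, 95% interval -0.48 to 1.05).

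Early response genes moved between libraries of a group as well. Of 14 genes of dissociation stress, all 14 were lower in Fibroblast 2 than in Fibroblast 1 and 13 of 14 were lower in library 2 of LLC and of TAM. Their summed level was 5535 and 2204 RPKM in Fibroblast, 1398 and 1014 in LLC, and 6002 and 3375 in TAM. Hbegf and Ereg followed that order in LLC and Fibroblast and not in TAM. LLC, where Hbegf was highest, had the lowest sums of the sorted populations. The part of the stress response in these levels was not tested.

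Tgfa, encoding transforming growth factor alpha, was near the detection limit throughout. It stood at 0.449 and 0 RPKM in Total tumor, 0.136 and 0.220 in LLC, 0.318 and 0.349 in Fibroblast, and 0 and 0.158 in TAM. The highest of these values rests on an estimated 20.2 reads. Tgfa was the only member below the filter of 1 RPKM in 2 libraries, and it was not tested. Both Fibroblast libraries lay above both LLC and both TAM libraries, on an estimated 14.9 and 7.5 reads.

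**Figure D1:**
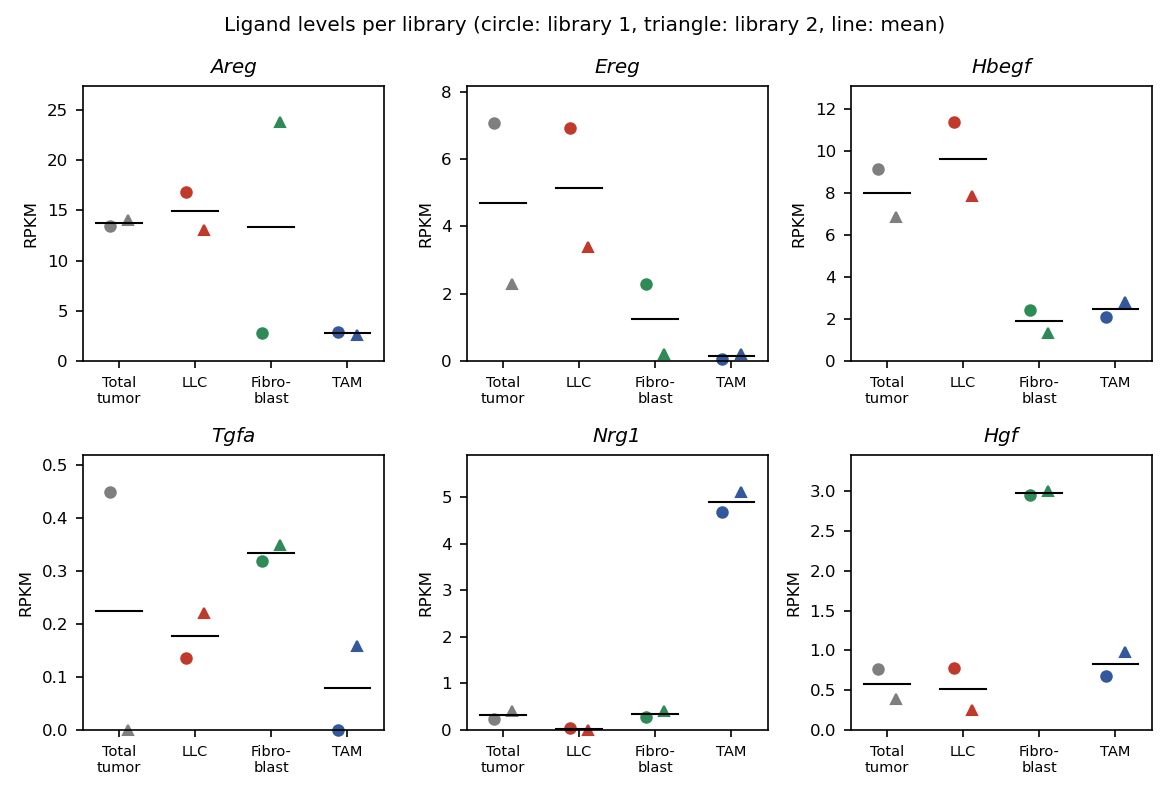
RPKM of the 6 ligands in each library (y axis, linear, starting at 0) by group (x axis), with circles for library 1, triangles for library 2 and a line at the mean of each pair. Areg, Ereg and Hbegf share high LLC and Total tumor levels, Nrg1 is high in TAM and Hgf in Fibroblast, and the Areg values of Fibroblast lie at 2.82 and 23.8 RPKM.

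Nrg1, which encodes neuregulin 1, was highest in TAM. Its level was 4.68 and 5.11 RPKM in TAM, on an estimated 97.9 and 55.9 reads, against 0.275 and 0.402 in Fibroblast, 0.238 and 0.404 in Total tumor, and 0.046 and 0 in LLC. The TAM libraries lay above all the others and differed from each other by 1.09-fold. Nrg1 was higher in TAM than in Fibroblast (14.5-fold between means, log2 2.14, SE 0.23, adjusted p = 0.000287) and than in LLC (log2 2.53, SE 0.23, adjusted p = 0.000198). Both calls held under all 17 alternatives that gave a value. Nrg1 passed the filter on low values only through its TAM libraries, so a difference was built into its being tested. Its receptor gene Erbb4 was listed at 0 in 7 libraries and at 0.05 RPKM in Fibroblast 2, and Erbb3 is described below.

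Hgf was highest in Fibroblast, at 2.95 and 3.001 RPKM on an estimated 106 and 49.1 reads. It stood at 0.682 and 0.978 RPKM in TAM, 0.773 and 0.255 in LLC, and 0.766 and 0.387 in Total tumor. Both Fibroblast libraries lay above all others, and the remaining groups overlapped with each other. The Fibroblast mean was 5.79-fold that of LLC (log2 1.41, SE 0.28, adjusted p = 0.00681) and 3.58-fold that of TAM (log2 -1.12 in TAM, SE 0.28, adjusted p = 0.0161). The first call ended without LLC replicate 2 (log2 1.16, adjusted p = 0.0517, other settings 0.00276 to 0.0517). The second ended with a pseudocount of 0.1 (adjusted p = 0.0727), without Fibroblast replicate 1 (0.063) or 2 (0.0674), and without TAM replicate 1 (0.1), and other settings ran from 0.0058 to 0.1. Like Nrg1, Hgf was tested only because of the group in which it was high.

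Egfr, the shared receptor of Areg, Ereg, Hbegf and Tgfa, was the most abundant member in Fibroblast and not in the other groups. It reached 49.2 and 66.7 RPKM in Fibroblast, against 5.36 and 6.15 in LLC, 6.67 and 2.39 in Total tumor, and 1.16 and 1.58 in TAM. The Fibroblast libraries lay above all others, and the TAM libraries below all others. Fibroblast was 10.1-fold above LLC (log2 3.11, SE 0.40, adjusted p = 0.00118) and 42.4-fold above TAM (log2 -4.63 in TAM, SE 0.40, adjusted p = 0.000152), and both calls held under all 18 alternatives. TAM was also lower than LLC (log2 -1.51, SE 0.40, adjusted p = 0.0187). That call ended with no filter on low values (adjusted p = 0.0795), on leaving out LLC replicate 1 (0.0733) or 2 (0.0939), and on leaving out TAM replicate 1 (0.0987) or 2 (0.0594). Its adjusted p ran from 0.00186 to 0.0987. Markers of fibroblasts were higher in TAM 2 than in TAM 1, and Egfr in TAM followed the same order. Their part in the TAM level of Egfr was not tested.

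Egfr was the only member with a second transcript in the table. The transcript NM_207655, of 10208 bases, was used above, and the shorter NM_007912, of 2943 bases, gave 38.2 and 48.2 RPKM in Fibroblast, 3.36 and 5.33 in LLC, 4.61 and 1.59 in Total tumor, and 0.482 and 0.754 in TAM. The groups fell in the same order on both. Reads on exons that the transcripts share could be counted for each, so these values are not independent and the split between the transcripts is uncertain. The window before the Egfr start, chr11:16751953-16752202 on the plus strand of GRCm38.p6, is shown for comparison with Areg. It holds a GC box on the opposite strand, in capitals, 9 bases before the start, and none of the other 3 motifs.
Egfr: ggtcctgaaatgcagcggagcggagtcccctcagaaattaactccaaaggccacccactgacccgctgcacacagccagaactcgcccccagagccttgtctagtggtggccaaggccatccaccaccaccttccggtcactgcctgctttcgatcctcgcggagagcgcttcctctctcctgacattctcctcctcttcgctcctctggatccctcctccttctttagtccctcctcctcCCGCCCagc

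Erbb2, the partner receptor, was present in Fibroblast, LLC and Total tumor and near 0 in TAM. It stood at 7.997 and 7.37 RPKM in Fibroblast, 4.46 and 4.96 in LLC, 4.26 and 4.72 in Total tumor, and 0.117 and 0.224 in TAM, the last on an estimated 5.0 reads in each library. Replicates were close in every group but TAM, with at most 1.11-fold between them. TAM was lower than Fibroblast (45.1-fold between means, log2 -2.89, SE 0.25, adjusted p = 0.000152) and than LLC (27.6-fold, log2 -2.29, SE 0.25, adjusted p = 0.000371), under all 18 alternatives. Fibroblast libraries lay above both LLC libraries, but the difference did not pass (log2 0.60, 95% interval 0.02 to 1.19, adjusted p = 0.094). It passed after upper-quartile rescaling (log2 1.05, adjusted p = 0.0216) and quantile normalization (log2 0.98, adjusted p = 0.022). Values just under the threshold came with a pseudocount of 5 (0.0452), the sorted libraries only (0.0499) and without Total tumor replicate 1 (0.049), and other settings reached 0.301.

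Erbb3, the receptor for neuregulin 1 with an impaired kinase, was low in every group. It stood at 0.673 and 3.37 RPKM in Fibroblast, 0.788 and 1.28 in TAM, 0.192 and 0.117 in LLC, and 0.275 and 0 in Total tumor. The level of Fibroblast 2 was 5.01-fold that of Fibroblast 1, in the same direction as Areg and the epithelial markers. No comparison of sorted populations passed (TAM minus Fibroblast log2 -0.42, 95% interval -1.43 to 0.59; TAM minus LLC log2 0.81, -0.20 to 1.82; Fibroblast minus LLC log2 1.23, 0.22 to 2.24). Without Fibroblast 2 the difference between TAM and Fibroblast turned to 0.27, and without Fibroblast 1 it was -1.11 (adjusted p = 0.0431, other settings 0.0431 to 0.951). Erbb3 was above LLC in both TAM libraries. That difference passed only with a Fibroblast library left out, which leaves its log2 of 0.81 as it was. As for Areg, this takes the gap between the Fibroblast libraries out of the shared error. Fibroblast was above LLC without Fibroblast replicate 1 (log2 1.92, adjusted p = 0.0108) and after upper-quartile rescaling (log2 1.47, adjusted p = 0.0498), with other settings up to 0.235.

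Met, the HGF receptor, was highest in LLC among the sorted populations, at 15.6 and 20.9 RPKM. Total tumor had 23.8 and 11.0 RPKM, against 1.970 and 2.000 in Fibroblast and 1.11 and 2.56 in TAM. LLC lay above Fibroblast and TAM without overlap, and those overlapped with each other. The LLC mean was 9.20-fold that of Fibroblast (log2 -2.68 in Fibroblast, SE 0.42, adjusted p = 0.00254) and 9.97-fold that of TAM (log2 -2.80 in TAM, SE 0.42, adjusted p = 0.00143), and both calls held under all 18 alternatives. The difference between TAM and Fibroblast was -0.12 (95% interval -1.10 to 0.85). The lower Met and Egfr values of Total tumor 2 than of Total tumor 1 belong to transcripts of 6809 and 10208 bases, in the library that was low in long transcripts. Erbb2, with 5012 bases, was slightly higher there (4.72 against 4.26 RPKM). The part of length in these values was not tested.

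The window before the Met start, chr6:17463707-17463956 on the plus strand of GRCm38.p6, is shown for its AP-1 element. No other window of the 6 genes whose sequences were used has one. That element begins 54 bases before the start, and 3 GC boxes begin 239, 117 and 20 bases before it, all in capitals.
Met: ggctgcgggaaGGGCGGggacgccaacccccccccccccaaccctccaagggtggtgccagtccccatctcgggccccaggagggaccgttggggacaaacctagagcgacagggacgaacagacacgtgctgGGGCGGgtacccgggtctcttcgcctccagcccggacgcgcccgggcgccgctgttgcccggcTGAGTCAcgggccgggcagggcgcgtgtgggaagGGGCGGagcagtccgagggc

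**Figure D2:**
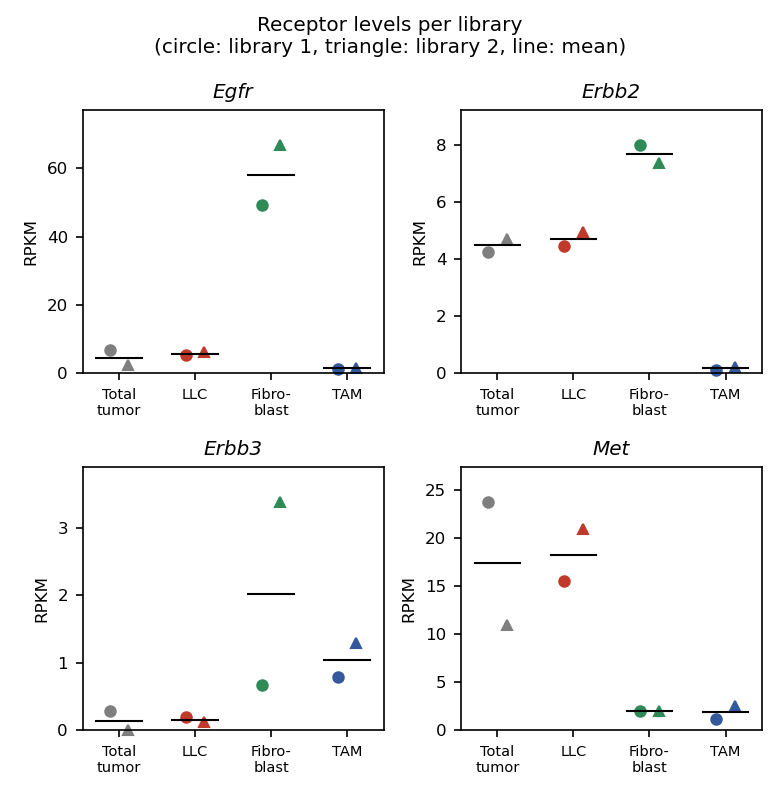
RPKM of the 4 receptors in each library (y axis, linear, starting at 0) by group (x axis), with circles for library 1, triangles for library 2 and a line at the mean of each pair. Egfr is highest in Fibroblast (49.2 and 66.7 RPKM), Met in LLC and Total tumor, and Erbb2 lies near 0 in TAM.

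Counted over the 9 members tested, TAM differed from Fibroblast in 4, with Nrg1 higher and Hgf, Egfr and Erbb2 lower. Over all genes tested, 34.7% were called in that comparison, 17.4% higher and 17.3% lower in TAM. Between TAM and LLC 6 were called, Nrg1 higher and Ereg, Hbegf, Egfr, Erbb2 and Met lower, against 42.9% of all genes (15.4% higher and 27.5% lower in TAM). Between Fibroblast and LLC 4 were called, Hgf and Egfr higher in Fibroblast and Hbegf and Met lower, against 38.6% of all genes (13.0% higher and 25.7% lower). The count for TAM and LLC was 3 without LLC replicate 1. With so large a part of all genes called, and with Nrg1, Hgf and Erbb3 tested only through the groups where they were high, the counts themselves are not read as a property of these genes. The direction of calls over all genes depended on scaling. Of the genes called between Fibroblast and LLC, 33.6% were higher in Fibroblast with the deposited values and 60.9% after upper-quartile rescaling, and between TAM and LLC the share higher in TAM was 35.9%, against 46.3% after quantile normalization. Between TAM and Fibroblast it was 50.2%, against 39.7% after upper-quartile rescaling. The median log2 difference of all genes was -0.46, -0.38 and 0.13 for Fibroblast minus LLC, TAM minus LLC and TAM minus Fibroblast, and upper-quartile rescaling moved it to -0.03, -0.20 and -0.11. No called member changed direction under any scaling.

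**Figure D3:**
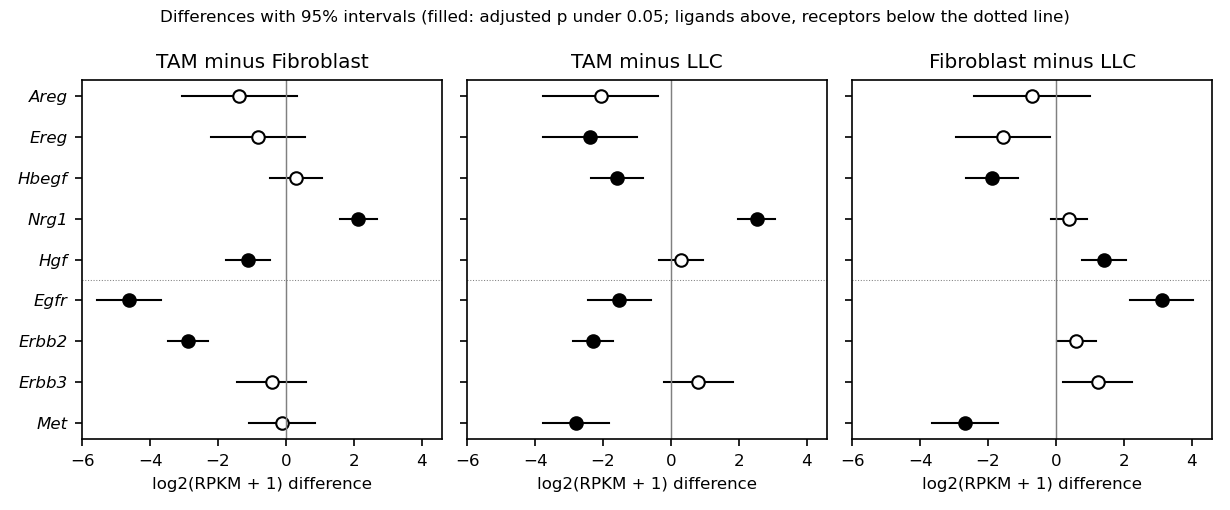
Difference in log2(RPKM + 1) with its 95% interval (x axis) for the 9 members tested (y axis) in the 3 comparisons of sorted populations, with filled points where limma's adjusted p was under 0.05. Egfr lies farthest from 0, at -4.63 in TAM minus Fibroblast and 3.11 in Fibroblast minus LLC, while Met lies at -2.80 and -2.68 against LLC.

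No member was called between LLC and Total tumor by limma, 0 of 9 had an unadjusted p under 0.05, and 2.35% of all genes were called (0.0526% higher and 2.30% lower in LLC). The differences lay between -0.37 for Nrg1 and 0.40 for Egfr on the log2 scale. The 95% intervals were as wide as -1.60 to 1.81 for Areg, so differences inside them are not excluded. TAM differed from Total tumor in 5 members, with Nrg1 higher (log2 2.16) and Ereg, Hbegf, Erbb2 and Met lower (log2 -2.19, -1.37, -2.23 and -2.66), against 35.2% of all genes (11.3% higher and 23.9% lower). In limma the Ereg call (adjusted p = 0.025) ended without Total tumor replicate 1 (0.0866), TAM replicate 1 (0.116) or TAM replicate 2 (0.091), and the Hbegf call (0.0158) without TAM replicate 1 (0.0927) or 2 (0.054). Over their other settings they reached 0.135 and 0.0927, and the count of members was 3 without TAM replicate 1 and 3 without TAM replicate 2. Areg passed without Fibroblast replicate 1 or 2, where its log2 stayed at -1.97 and the gap between the Fibroblast libraries left the shared error. Egfr passed without Total tumor replicate 2 (log2 -1.70). Fibroblast differed from Total tumor in 4, with Egfr and Hgf higher (log2 3.52 and 1.34) and Hbegf and Met lower (log2 -1.66 and -2.53), against 42.1% of all genes (12.1% higher and 30.0% lower). The Hbegf call ended without Fibroblast replicate 2 (log2 -1.38, adjusted p = 0.0665, other settings from 0.00583). Of all genes called, the share higher was 32.2% in TAM and 28.8% in Fibroblast, against 50.4% after quantile normalization and 56.8% after upper-quartile rescaling. These comparisons share their Total tumor libraries with each other.

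Each Fibroblast library on its own set the place of Areg and Erbb3. Areg was 2.82 RPKM in Fibroblast 1, beside TAM, and 23.8 RPKM in Fibroblast 2, above every LLC library. Ereg and Hbegf lay the other way between the libraries, at 2.28 against 0.204 RPKM and 2.43 against 1.33 RPKM. Egfr, Erbb2, Hgf and Met differed by at most 1.36-fold between the Fibroblast libraries.

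**Figure D4:**
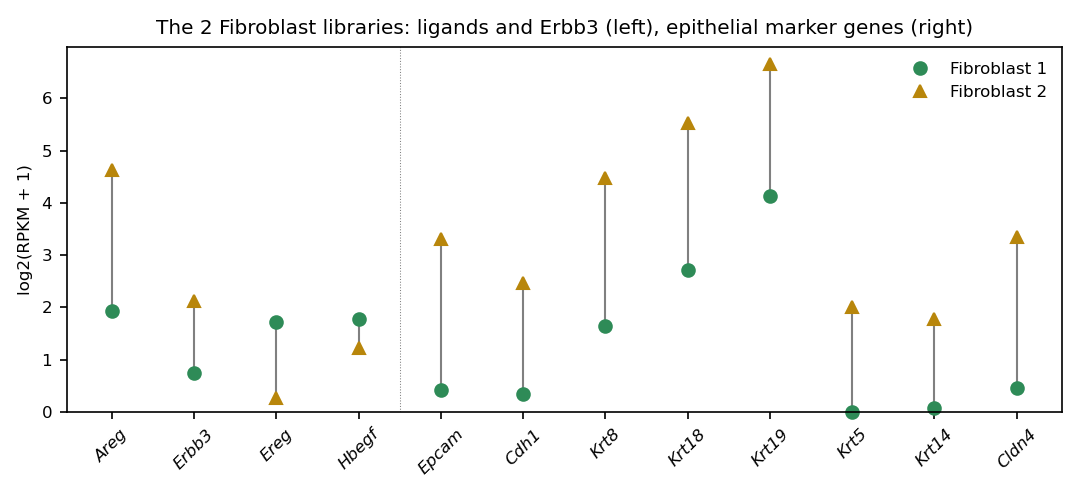
Level as log2(RPKM + 1) (y axis, starting at 0) of Areg, Erbb3, Ereg and Hbegf and of 8 epithelial marker genes (x axis) in Fibroblast 1 (circles) and Fibroblast 2 (triangles). Areg, Erbb3 and all 8 epithelial markers are higher in Fibroblast 2, while Ereg and Hbegf are lower there.

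Of 7 other EGF-family genes, 2 were abundant enough to test. Nrg4, another neuregulin, was higher in TAM (5.71 and 5.35 RPKM) than in Fibroblast (1.65 and 1.65 RPKM, log2 1.30, adjusted p = 0.0194) and LLC (2.15 and 1.58 RPKM, log2 1.20, adjusted p = 0.024). In each TAM library it lay above Nrg1 (4.68 and 5.11 RPKM). Btc, which encodes the EGFR ligand betacellulin, stood at 1.105 and 1.216 RPKM in LLC, was listed at 0 in both TAM libraries, and was lower there (log2 -1.11, adjusted p = 0.00847) and in Fibroblast (log2 -0.76, adjusted p = 0.0429). Without its LLC libraries Btc would not have passed the filter on low values, so a difference was built into its being tested. After upper-quartile rescaling it was not tested. The Nrg4 call against Fibroblast was lost when any Fibroblast or TAM library was left out. The Nrg4 call against LLC and the Btc call between Fibroblast and LLC were lost when any sorted library was left out. Egf itself was at most 0.246 RPKM in any library.

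Of 10 other genes of the HGF system tested, 2 were higher and 3 lower in TAM than in Fibroblast, 3 higher and 3 lower in TAM than in LLC, and 3 higher and 1 lower in Fibroblast than in LLC. Over all genes 34.7%, 42.9% and 38.6% were called in these comparisons, and the 4 of 10 between Fibroblast and LLC lay near that background. Their median log2 differences were -0.61, 0.34 and 0.60, beside 0.13, -0.38 and -0.46 for all genes. The counts fell with several of the libraries left out, and so did the calls over all genes there. Between TAM and LLC 1 was called without LLC replicate 2 and 1 without TAM replicate 1, 3 without LLC replicate 1 and 3 without TAM replicate 2. Between TAM and Fibroblast 3 were called without TAM replicate 2, and between Fibroblast and LLC 2 without any 1 of LLC replicate 1 or 2, Fibroblast replicate 2, or TAM replicate 1 or 2. Mst1r, the receptor closest to MET, stood at 17.5 and 10.5 RPKM in Fibroblast against 0.108 and 0.391 in LLC (log2 3.56, adjusted p = 0.000967) and 0.131 and 1.12 in TAM (log2 -3.23, adjusted p = 0.000804). The protease Plat was also highest in Fibroblast, at 196 and 157 RPKM against 30.8 and 37.2 in LLC (log2 2.34, adjusted p = 0.00138) and 2.46 and 4.70 in TAM (log2 -5.31, adjusted p = 0.000104). Cd44, whose product can act as a coreceptor of MET, was higher in TAM than in Fibroblast (log2 1.17, adjusted p = 0.0123), as was the plexin gene Plxnb2 (log2 1.28, adjusted p = 0.00239). Hgfac, a protease gene, and Mst1, which encodes the ligand of the Mst1r receptor, were at most 0.297 RPKM in any library.

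Among genes for the release of EGF ligands, of 11 tested, 4 were higher and 5 lower in TAM than in Fibroblast, 3 higher and 2 lower in TAM than in LLC, and 3 higher and 2 lower in Fibroblast than in LLC. The shares called over all genes were 34.7%, 42.9% and 38.6%, and the counts against LLC lay near them. The list's medians were -0.05, -0.08 and -0.27 beside 0.13, -0.38 and -0.46 for all genes, and the last 2 turned to 0.13 and 0.21 with upper-quartile rescaling. The count called in Fibroblast against LLC rose without either Total tumor library and fell without any 1 LLC or Fibroblast library. Calls over all genes moved the same ways. Adam17, the main sheddase of several EGF ligands, was 37.8 and 42.9 RPKM in LLC, 34.5 and 42.1 in TAM, and lower in Fibroblast at 19.2 and 23.5 (log2 -0.89 against LLC, adjusted p = 0.0291). Its trafficking partners lay apart, with Rhbdf2 at 38.0 and 32.8 RPKM in TAM against 2.54 and 3.02 in Fibroblast (log2 3.27, adjusted p = 0.000106) and Rhbdf1 lower in TAM than in LLC, at 3.67 and 3.67 against 67.95 and 50.7 RPKM (log2 -3.68, adjusted p = 0.000125). Timp3, an inhibitor of ADAM17, stood at 149 and 102 RPKM in Fibroblast, 0.986 and 2.54 in LLC (log2 5.55, adjusted p = 0.000819), and 1.02 and 3.86 in TAM (log2 -5.31, adjusted p = 0.000516). Adam8, a metalloprotease of leukocytes, reached 473 and 393 RPKM in TAM (log2 5.94 against Fibroblast, adjusted p = 0.000104).

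Of 15 inhibitors of the receptors tested, 1 was higher and 7 lower in TAM than in Fibroblast, and 2 higher and 6 lower in TAM than in LLC, with medians of -1.10 and -1.09 beside 0.13 and -0.38 for all genes. Over all genes 17.4% were higher and 17.3% lower in the first comparison and 15.4% and 27.5% in the second. Upper-quartile rescaling gave 1 higher and 8 lower, and 2 higher and 6 lower. Errfi1, whose product binds and inhibits EGFR and ERBB2, was 332 and 230 RPKM in Fibroblast, 84.6 and 83.2 in LLC (log2 1.71, adjusted p = 0.00584), and 15.3 and 19.3 in TAM (log2 -3.93 against Fibroblast, adjusted p = 0.000136). Lrig1, which lowers the level of EGF-family receptors, was highest in LLC at 97.2 and 95.8 RPKM, against 12.3 and 9.49 in Fibroblast (log2 -3.05, adjusted p = 0.000353) and 2.48 and 1.76 in TAM (log2 -4.98, adjusted p = 9.87e-05). Between Fibroblast and LLC 2 of the 15 were higher and 3 lower, below the 38.6% called over all genes, and the list's median turned from -0.27 to 0.13 with upper-quartile rescaling. The count called there fell without any 1 LLC or Fibroblast library. It rose without either Total tumor library. Calls over all genes moved the same ways.

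Of 18 adaptors and relay genes, 5 were higher and 1 lower in TAM than in Fibroblast, 2 higher and 3 lower in TAM than in LLC, and 0 higher and 5 lower in Fibroblast than in LLC (medians 0.44, -0.38 and -0.73, beside 0.13, -0.38 and -0.46). All of these counts lay at or below the 34.7%, 42.9% and 38.6% called over all genes. With upper-quartile rescaling 2 were higher and 3 lower in TAM than in Fibroblast, and 0 higher and 1 lower in Fibroblast than in LLC. Without any 1 LLC or Fibroblast library the count lower in Fibroblast than in LLC fell, and without either Total tumor library it rose. The number lower over all genes did the same, and the list's median stayed between -0.81 and -0.68. Between TAM and Fibroblast the calls rose without either Total tumor library and fell with a Fibroblast or TAM library left out. So did those over all genes. Between TAM and LLC 3 were called without LLC replicate 1. Grb2, the adaptor that links receptors to RAS, was 90.6 and 79.0 RPKM in TAM, 35.9 and 34.0 in LLC, and 16.2 and 16.2 in Fibroblast. It differed between all of these (adjusted p = 0.00021 for TAM against Fibroblast, 0.00378 for TAM against LLC and 0.00956 for Fibroblast against LLC). Gab1, an adaptor of MET, was lower in Fibroblast (6.08 and 6.95 RPKM) than in LLC (24.3 and 26.0 RPKM, log2 -1.80, adjusted p = 0.00318).

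Genes that respond to ERK, the kinase downstream of these receptors, were lower in Fibroblast than in LLC for 9 of 12 and higher for 1. Over all genes 25.7% were lower and 13.0% higher there, and the medians were -1.99 for the list and -0.46 for all genes. With upper-quartile rescaling, under which most called genes were higher in Fibroblast, 7 were lower and 2 higher, and the list's median was -1.56. Without any 1 LLC or Fibroblast library the count lower fell, as did that over all genes, with list medians between -2.17 and -1.76. Between TAM and Fibroblast 6 were higher and 2 lower (median 0.41 beside 0.13, all genes 17.4% and 17.3%), with 3 and 2 without Fibroblast replicate 2, and 4 and 0 without Fibroblast replicate 1 or TAM replicate 2. Between TAM and LLC 1 was higher and 5 lower (median -0.86 beside -0.38, all genes 15.4% and 27.5%). Dusp6, an ERK phosphatase induced by ERK, was 12.5 and 11.1 RPKM in Fibroblast, 125 and 105 in LLC (log2 -3.18, adjusted p = 0.000272), and 122 and 110 in TAM (log2 3.19 against Fibroblast, adjusted p = 0.00011). Fosl1 was highest in LLC, at 121 and 108 RPKM against 17.5 and 7.31 in Fibroblast (log2 -3.22, adjusted p = 0.00111). Egr1 lay the other way, at 595 and 351 RPKM in Fibroblast and 51.7 and 42.1 in LLC (log2 3.26, adjusted p = 0.00918). Egr1 and Ier3 are also among the 14 genes of dissociation stress, which summed to 5535 and 2204 RPKM in Fibroblast and 6002 and 3375 in TAM. Ier3 was 452 and 267 RPKM in TAM against 165 and 56.6 in Fibroblast. The part of the stress response in the counts of this list was not tested.

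**Figure D5:**
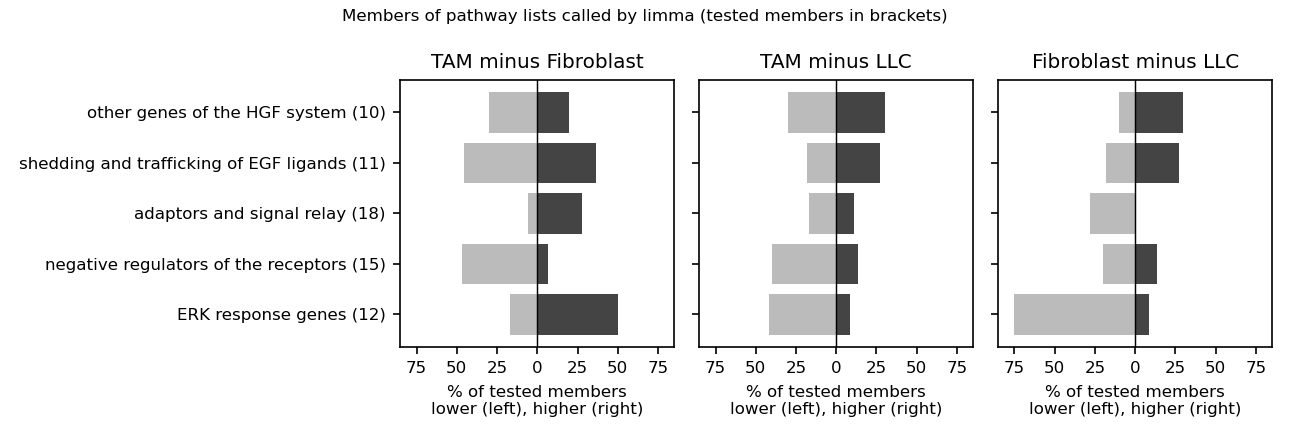
Percent of the tested members of 5 pathway lists (y axis, number tested in brackets) that limma called higher (dark bars, to the right) or lower (light bars, to the left) in the 3 comparisons of sorted populations. ERK response genes stand out in Fibroblast minus LLC, with 9 of 12 lower and 1 higher.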

How the data were processed

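RNA was primed with oligo-dT and libraries were read at 50 bp, per the labels' protocols. The authors deposited RPKM values per RefSeq transcript, 1 column per library. STAR, HOMER and the build mm9 are named, without versions, per the submitters' processing notes. The strand setting and read filters were not stated. Only 3 transcripts of 31645 lacked a gene name and were left out. For each symbol the transcript with the highest mean was kept, and 13311 genes with at least 1 RPKM in at least 2 libraries were tested on log2(RPKM + 1). The authors' values were not rescaled. All 8 libraries entered 1 fit of 4 group means with limma 3.58.1 (R 4.3.3) and a variance trend, with Benjamini-Hochberg adjustment over all genes tested and a threshold of 0.05. The fit had 4 residual degrees of freedom. A fold change on this scale understates that of low genes. The procedure was tested on simulated data.

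Depth was set where the largest share of low RPKM values came within 0.05 of a whole read (58.0 to 62.7% of them), with transcript lengths from GENCODE M21 for 97.4% of transcripts. Reads behind a value are estimates from that depth. The test fitted RPKM, not counts.

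All 10 members are named. Of each pathway list up to 2 called genes per direction and comparison could be named, by size of the log2 difference. Erbb4, Egf, Hgfac, Mst1 and Ier3 were named after their values were seen. The members, lists, markers and tests were chosen with earlier results of these data known. Other settings tried were a pseudocount of 0.1 or 5, a filter of 5 RPKM or none, upper-quartile and quantile scaling, no variance trend, the mean over transcripts, sorted libraries only, a term for the replicate number, and each library left out in turn. For the count of members at 1 RPKM, floors of 0.5 and 5 RPKM were tried.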

Additional observations from a re-analysis of the deposited data

How the results depend on the processing

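Of 54 member differences, 23 were called, and 15 of these held under every setting in which the gene was tested. With a filter of 5 RPKM, Nrg1, Hgf and Erbb3 were not tested. The other 8 were lost under 1 or more, and 16 of the 31 not called passed under 1 or more. No called difference reversed. The count of members called between TAM and Fibroblast fell from 4 to 2 with a filter of 5 RPKM, which leaves fewer genes to test. That between TAM and Total tumor was 3 with no filter and 3 with quantile normalization, in place of 5. With 1 library left out the counts ran from 3 to 5 (TAM and Fibroblast), 3 to 8 (TAM and LLC), 3 to 6 (Fibroblast and LLC), 3 to 7 (TAM and Total tumor) and 4 to 5 (Fibroblast and Total tumor). With a floor of 5 RPKM, 3 members were detected in Total tumor, 2 in Fibroblast and 0 in TAM. Differences that were not called changed sign in some settings. With quantile normalization Met in TAM minus Fibroblast was 0.21, Hgf in LLC minus Total tumor 0.20 and Nrg1 in Fibroblast minus Total tumor -0.025. With 1 library left out, TAM minus Fibroblast ran from -1.11 to 0.27 for Erbb3 and from -0.50 to 0.25 for Met, and Fibroblast minus LLC from -2.05 to 0.65 for Areg. LLC minus Total tumor ran from -0.067 to 0.28 for Areg, -0.46 to 0.84 for Ereg, -0.013 to 0.47 for Hbegf, -0.32 to 0.18 for Hgf, -0.19 to 0.99 for Egfr, -0.0054 to 0.12 for Erbb2, -0.14 to 0.21 for Erbb3 and -0.38 to 0.67 for Met. Fibroblast minus Total tumor ran from -1.95 to 0.75 for Areg and from -0.071 to 0.11 for Nrg1. Apart from the filter and the shared error described for Areg and Erbb3, the cause was not tested. Over all genes, the 4614 calls between TAM and Fibroblast ran from 3120 to 6110 with 1 library left out, the 5707 between TAM and LLC from 3418 to 7354, the 5142 between Fibroblast and LLC from 2306 to 7146, the 4690 between TAM and Total tumor from 2389 to 5990 (3098 with no filter), the 313 between LLC and Total tumor from 0 to 2420 (12 with no filter), and the 5601 between Fibroblast and Total tumor from 2366 to 7193. The replicate block, a term for the library number, gave 4, 6, 5, 5, 0 and 4 members called, in the order TAM and Fibroblast, TAM and LLC, Fibroblast and LLC, TAM and Total tumor, LLC and Total tumor, and Fibroblast and Total tumor. It added Ereg between Fibroblast and LLC (adjusted p = 0.0365, other settings up to 0.384). The labels give the numbers no shared origin, and the correlation of deviations between same-numbered libraries ran from 0.16 to 0.27 among sorted groups and from -0.36 to -0.18 with Total tumor. Depth limits levels that rest on an estimated 7.5 reads or fewer in a library, among them Nrg1 outside TAM (0 to 7.0), Hgf in LLC 2 (3.8) and Total tumor 2 (6.3), Erbb3 in LLC 2 (3.0) and Total tumor 2 (0), Ereg in TAM (2.0 and 4.0) and Fibroblast 2 (4.0), Erbb2 in TAM (5.0 and 5.0) and Tgfa outside Total tumor 1 and Fibroblast 1 (0 to 7.5). The scalings and left-out libraries given for the pathway lists were chosen after seeing the data. Between sorted populations, the calls over all genes fell when a library of either compared group was left out. They rose without either Total tumor library, so left-out counts of a list are not read as a property of it.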

Other observations

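Across the 8 libraries, the genes most like each member in log2(RPKM + 1), out of 13311, were Zfp94 (Pearson's r = 0.981) for Areg, Cdan1 (0.987) for Ereg, Gtpbp4 (0.993) for Hbegf, Stx12 (0.996) for Nrg1, Myh10 (0.978) for Hgf, Zfp521 (0.997) for Egfr, Ehd2 (0.996) for Erbb2, Reps2 (0.951) for Erbb3 and Pom121 (0.996) for Met. The next were Pigb (0.934), Nefl (0.982), Cdv3 (0.991), Kif19a (0.994), Arl4d (0.977), Dclk1 (0.996), Vasn (0.995), Ehhadh (0.938) and Smarcc1 (0.993) in the same order. The libraries are pairs from 4 groups and share their scaling, so with so many genes high values are common. Among the members, Hbegf and Met had r = 0.95, Hbegf and Ereg 0.89, Egfr and Hgf 0.84, and Erbb2 and Nrg1 -0.94.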
